A study of Mus musculus with 12 samples.

Results

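The strain difference at embryonic stage E17.5 was described across genes from 4 of the 12 arrays of the series: 2 arrays of testis from the strain M19 and 2 arrays from the strain 129/Sv. All probe sets other than controls were compared, 45037 of the 45037 that the series holds, and they stand for 18193 named genes. M19 is the chromosome substitution strain 129.MOLF-Chr 19, in which chromosome 19 of MOLF mice replaces that of 129, and 129/Sv (129) is the strain that supplies the rest of the genome. Both groups are male genital ridges, labelled testis, and neither is labelled with a mutation, transgene or treatment. RNA was extracted from 40 pairs of testes pooled for 2 arrays, per the labels. If both arrays of a group share 1 pool, which the labels leave unclear, the p-values measure technical spread only. The other 8 arrays hold the same 2 strains at E13.5 and E15.5 and enter the fit of the spread.

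Testicular germ cell tumours are frequent in males of the M19 strain, and such tumours start from fetal germ cells that keep features of pluripotent cells. In the fetal testis of a mouse, germ cells normally shut down the pluripotency genes and enter mitotic arrest around the middle stage studied, while Sertoli cells enclose them in cords and Leydig cells make androgens. Nodal signalling, which acts through ligands, co-receptors such as Cripto and secreted inhibitors such as Cerberus, patterns the early embryo and is also active for a short time in fetal male germ cells. Anterior endoderm and organizer tissue of the early embryo express Cerberus, Lhx1, Otx2, Foxa2 and Dkk1 together. These facts are background, and no cell type was sorted here.

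Values are the deposited signals, taken as log2 units, and a difference is M19 minus 129 with the standard error (SE) of the limma fit. A probe set was called where limma's two-sided p, adjusted by Benjamini-Hochberg over the 45037 probe sets, was under 0.05. In bulk tissue, a different number of cells of a type and a different RNA amount per cell cannot be told apart. Array medians at E17.5 lay between 8.18 and 8.22. Pearson's r over probe sets was 0.992 between the 129 arrays, 0.990 between the M19 arrays and 0.989 to 0.995 between arrays of different strains, so the arrays of a strain were no more alike than arrays of opposite strains. The highest of the 6 values, 0.995, was between 129 replicate 1 and M19 replicate 2.

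At E17.5, 44 of 45037 probe sets (0.0977%) were called, 20 of them higher in M19 (0.0444%) and 24 lower (0.0533%). Of these, 37 probe sets carry the name of 1 gene and stand for 35 genes (0.192% of 18193), 17 higher and 18 lower. In all 44 the arrays of the strains did not overlap, which held for 13.2% of all probe sets in the higher direction and 10.9% in the lower. The call was made on the same arrays and favours such separation, so this count is not added support. The called probe sets fell into 2 unlike groups. Genes higher in M19 were mostly off chromosome 19 and included anterior endoderm, epiblast and pluripotency genes, led by Cer1 at 12.8-fold. Genes lower in M19 were nearly all on chromosome 19, led by Snhg1 at 9.96-fold. The count depended on single arrays. It was 14 and 16 without 129 E17.5 replicates 1 and 2, 15 and 21 without M19 E17.5 replicates 1 and 2, and 29 without either M19 E13.5 array. The median difference over the 45037 probe sets was 0.0003, a value that the unknown normalization of the arrays may set.

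**Figure D1:**
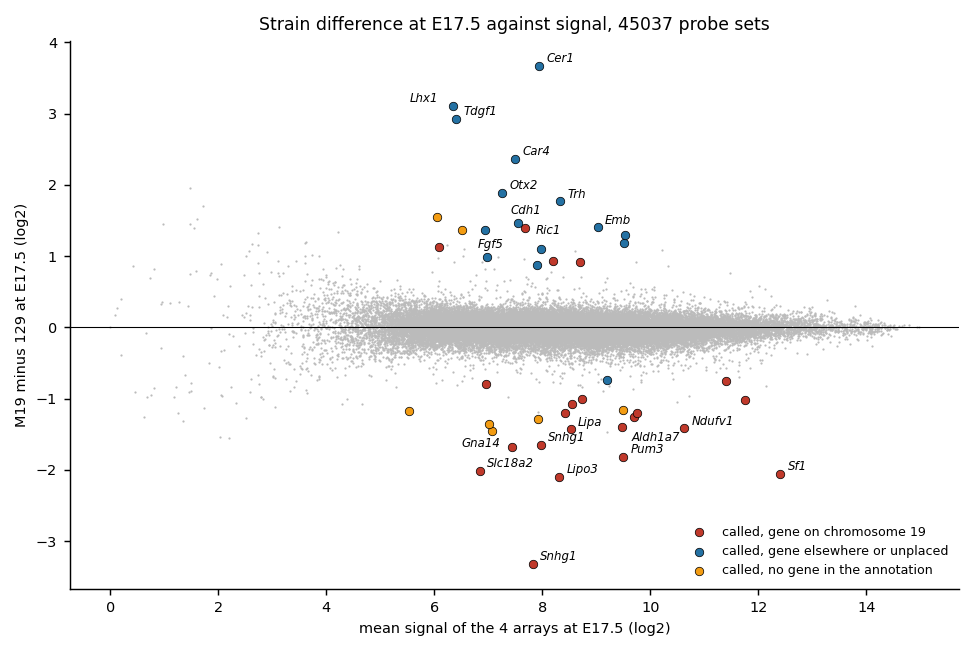
Strain difference at E17.5 (M19 minus 129, log2 units, vertical axis) against mean signal (log2 units, horizontal axis) for 45037 probe sets, with the 44 called ones coloured by whether their gene lies on chromosome 19, lies elsewhere or is unplaced, or is not named. Cer1, Lhx1 and Tdgf1 stand highest with differences of 3.67, 3.11 and 2.93, and Snhg1 stands lowest at -3.32.

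The windows of 250 bases upstream of the start are printed here for Cer1 and Trh, whose strain difference was larger at E17.5 than at both other stages, and for Tdgf1 and Otx2, whose windows hold a motif of a factor in the Nodal or Otx family. The sequences come from RefSeq on build GRCm38.p6 and run 5′ to 3′ along the gene, with motif matches in capitals. All 4 genes lie on the minus strand, at chr4:82885152-82885401 for Cer1, chr6:92244651-92244900 for Trh, chr9:110946159-110946408 for Tdgf1 and chr14:48665110-48665359 for 1 of the Otx2 starts. Each window lies just before an annotated transcript start and is named by that start.
Cer1: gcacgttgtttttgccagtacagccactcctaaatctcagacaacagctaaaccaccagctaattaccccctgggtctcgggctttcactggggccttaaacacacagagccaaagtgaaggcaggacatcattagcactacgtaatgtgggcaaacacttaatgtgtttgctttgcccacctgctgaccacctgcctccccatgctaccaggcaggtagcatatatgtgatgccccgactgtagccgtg
Trh: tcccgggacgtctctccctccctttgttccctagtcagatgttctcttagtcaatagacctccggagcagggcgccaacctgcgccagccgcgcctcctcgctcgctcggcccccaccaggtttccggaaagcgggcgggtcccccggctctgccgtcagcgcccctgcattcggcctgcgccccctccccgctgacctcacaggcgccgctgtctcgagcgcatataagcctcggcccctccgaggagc
Tdgf1: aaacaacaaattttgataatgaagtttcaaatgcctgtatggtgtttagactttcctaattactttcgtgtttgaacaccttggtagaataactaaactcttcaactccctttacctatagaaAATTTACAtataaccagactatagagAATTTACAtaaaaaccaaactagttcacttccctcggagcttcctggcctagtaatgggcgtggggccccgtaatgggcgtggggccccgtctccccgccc
Otx2: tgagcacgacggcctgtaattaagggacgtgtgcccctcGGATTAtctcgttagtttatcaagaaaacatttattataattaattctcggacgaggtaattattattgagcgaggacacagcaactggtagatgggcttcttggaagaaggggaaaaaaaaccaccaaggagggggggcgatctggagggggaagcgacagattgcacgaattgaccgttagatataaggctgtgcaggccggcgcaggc
RefSeq gave 22 such windows for 15 of the 17 higher genes. The FOXH1 motif AATNNACA (FOXH1 is the DNA-binding partner of Nodal's Smad proteins) was searched on both strands and matched 3 of the 22 windows, 1 of Tdgf1 and 2 of Otx2, against 10.9% of 32851 windows of all genes. The 2 Otx2 windows overlap and share 1 match, and neither is the one printed. In the Tdgf1 window its 2 matches begin 127 and 101 bases before the start. The bicoid-type homeodomain motif TAATCC, which OTX proteins bind, matched 1 of 22 windows, against 6.25% of all. That match is in the printed Otx2 window, reads GGATTA on the gene's strand and begins 211 bases before the start. The forkhead motif TGTTTAC and the octamer motif ATTTGCAT matched 0 of 22 windows, against 3.17% and 1.6% of all. A match describes letters only, and binding was not measured.

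Cer1, the secreted inhibitor of Nodal, BMP and Wnt ligands, had the largest difference of all probe sets. Its probe set 1450256_at read 6.16 and 6.05 on the 129 arrays and 9.55 and 10.0 on the M19 arrays. The difference was 3.67 ± 0.15 (SE, n = 2 arrays per strain; limma adjusted p = 3.98e-06), and the probe set was called in each of the 12 fits that left out 1 array. At E15.5 and E13.5 the difference was 0.09 and 0.02. The gene's other, brighter probe set, 1450257_at, differed by 0.22 ± 0.17 at E17.5 (limma adjusted p = 1.0), so the call rests on 1 of its 2 probe sets.

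Tdgf1 encodes Cripto, the co-receptor through which Nodal signals. It read 5.17 and 4.72 in 129 and 7.66 and 8.10 in M19. The difference was 2.93 ± 0.33, or 7.63-fold (limma adjusted p = 0.00685). The adjusted p was up to 0.133 without either 129 E17.5 array or M19 E17.5 replicate 2. Unlike Cer1, Tdgf1 was also called at E15.5, at 1.74 (limma adjusted p = 0.0466), while at E13.5 its difference was 0.85 and not called.

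Of the 18 measured genes of the Nodal pathway list, Cer1 and Tdgf1 were called, against 0.192% of all genes, and both were higher in M19. The other members were not called. All gene lists used here were drawn up with earlier results of these data known, so no list count is independent evidence. Some called genes stand in several lists. Nodal, the ligand, read 6.88 and 6.86 in 129 and 7.60 and 7.32 in M19, a difference of 0.59 ± 0.13 (limma adjusted p = 0.452). These arrays did not overlap between strains, and the second Nodal probe set differed by 0.25. Lefty1, a feedback inhibitor of Nodal, differed by 0.29, and Smad3, a transducer of the signal, by 0.20. The list's median, taken over the brightest probe set of each gene, was -0.004, against 0.0076 over 18193 genes.

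Lhx1, a LIM homeobox factor of head organizer, kidney duct and gonad development, read 5.02 and 4.56 in 129 and 7.61 and 8.19 in M19 with the probe set 1450428_at. The difference was 3.11 ± 0.33, or 8.62-fold (limma adjusted p = 0.0047). Without 129 or M19 E17.5 replicate 2 the adjusted p was up to 0.105. The brighter probe set 1421951_at differed by 0.24. Otx2, a homeobox factor of epiblast and forebrain, read 6.40 and 6.23 in 129 and 8.00 and 8.42 in M19. Its difference of 1.89 ± 0.16, or 3.71-fold (limma adjusted p = 0.000604), was called in each fit that left out 1 array. Otx2 was called at E15.5 with the same size, 1.89, and differed by -0.05 at E13.5.

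Foxa2, the forkhead factor of endoderm and node, read 7.42 and 7.43 in 129 and 8.51 and 8.55 in M19. It rose by 1.10 ± 0.15, or 2.15-fold (limma adjusted p = 0.0218). At E15.5 and E13.5 the difference was -0.04 and -0.16. Trh, the precursor of thyrotropin-releasing hormone, read 7.48 and 7.41 in 129 and 9.32 and 9.10 in M19. Its difference of 1.77 ± 0.12, or 3.41-fold (limma adjusted p = 0.000162), was called in each of the 12 fits without 1 array. Foxa2 was not called in 8 of those fits, which left out an M19 array of E13.5 or E15.5 or any E17.5 array, with an adjusted p of up to 0.292.

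Dkk1, a secreted inhibitor of Wnt signalling, and Cyp26a1, an enzyme that breaks down retinoic acid, lie on chromosome 19, where M19 carries MOLF sequence. Dkk1 read 5.59 and 5.46 in 129 and 6.62 and 6.68 in M19 with the probe set 1458232_at, a difference of 1.13 ± 0.15 (limma adjusted p = 0.017). Its brighter probe set 1420360_at differed by 0.98 ± 0.18 and was not called (limma adjusted p = 0.175). Cyp26a1 read 7.75 and 7.71 in 129 and 8.62 and 8.70 in M19, a difference of 0.93 ± 0.12 (limma adjusted p = 0.0183). At E15.5 and E13.5 these called probe sets differed by -0.10 and -0.06 for Dkk1 and -0.10 and -0.07 for Cyp26a1, and the brighter Dkk1 probe set by -0.47 and -0.50. Leaving out any E17.5 array ended the call of both, and leaving out either M19 E13.5 array that of Cyp26a1, with adjusted p-values of up to 0.265 for Dkk1 and 0.258 for Cyp26a1.

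Together, 7 of the 25 measured genes of a list of anterior endoderm and organizer genes were called, all higher in M19: Cer1, Lhx1, Otx2, Trh, Foxa2, Dkk1 and Cyp26a1. This list was drawn up with earlier results of these data known, and its count is not independent evidence. The called probe sets of all 7 have a mean over the 12 arrays below the median of all probe sets, and those of Cer1, Lhx1 and Dkk1 lie below the 25th percentile, so none of the 7 was tested when dim probe sets were left out at the median. Over all genes, 0.192% were called. By the brightest probe set of each gene, 14 of the 25 lay higher in both M19 arrays and 1 lower, against 14.0% and 9.38% of all genes. The list's median was 0.167, with 0.149 to 0.234 when 1 array was left out. Apela, the ligand that guides endoderm precursors, differed by 0.65 ± 0.12 (limma adjusted p = 0.214), and Gsc, an organizer homeobox gene, by 0.54 ± 0.18 (limma adjusted p = 1.0). Hhex and Mixl1 differed by 0.37 and 0.33 and Fzd8 by -0.48, all without a call.

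Markers of visceral and primitive endoderm did not follow. In that list of 18 genes Foxa2 was called, 1 gene lay higher in both M19 arrays by its brightest probe set, and the median was 0.017. The summed signal of the list was 14.6 and 14.62 on the 129 arrays and 14.5 and 14.68 on the M19 arrays, which overlap. Among 15 neural and forebrain genes Otx2 was called, and the median was 0.082.

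Pluripotency genes were the next group. L1td1, an RNA-binding protein of pluripotent cells, read 6.47 and 6.51 in 129 and 7.48 and 7.47 in M19, a difference of 0.99 ± 0.14 (limma adjusted p = 0.0301). It was called at E15.5 with 0.98 as well. Of 24 measured members of the pluripotency list, Tdgf1 and L1td1 were called, and the median was 0.104. By the brightest probe set, 10 members lay higher in both M19 arrays and 2 lower, against 14.0% and 9.38% of all genes, and 0.192% of all genes were called by any probe set. These counts are not independent evidence, because the list was drawn up with earlier results of these data known. Tdgf1 also stands in the Nodal list. The call of L1td1 was lost in 8 of 12 fits without 1 array, those without an M19 array of E13.5 or E15.5 or any E17.5 array, with an adjusted p of up to 0.381, and after median centring.

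Sox2, Nanog and Dnmt3b, a pair of core pluripotency factors and a DNA methyltransferase of the epiblast, were not called at E17.5, although the arrays given here did not overlap. Sox2 read 5.78 and 5.54 in 129 and 6.57 and 7.07 in M19, a difference of 1.16 ± 0.22 (limma adjusted p = 0.203). Nanog read 6.43 and 6.42 against 7.03 and 7.66, with 0.92 ± 0.23 (limma adjusted p = 0.755). Dnmt3b read 9.24 and 9.31 against 10.04 and 10.34 with 1449052_a_at, a difference of 0.92 ± 0.16 (limma adjusted p = 0.144), and its second probe set differed by 0.55. At E15.5 the same probe sets were called with 1.65, 1.39 and 1.04. Pou5f1, which encodes Oct4, read 9.07 and 9.34 against 9.75 and 9.67, with 0.50 ± 0.16 (limma adjusted p = 1.0).

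Fgf5, a growth factor of the primed epiblast, was called together with Otx2 among 14 genes of that state. Its probe set 1438883_at read 6.13 and 6.39 in 129 and 7.53 and 7.73 in M19, a difference of 1.37 ± 0.20 (limma adjusted p = 0.0366). The gene's brightest probe set differed by 0.19. The call was lost after quantile normalization, after median centring and in 8 of 12 fits without 1 array (all but those without a 129 array of E13.5 or E15.5), with an adjusted p of up to 0.549. Fgf8, a growth factor of the primitive streak, differed by 0.67 ± 0.13 and was not called (limma adjusted p = 0.229). The streak and mesoderm list of 13 genes held 1 called gene, Lhx1.

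Cdh1 encodes E-cadherin, which joins epithelial cells and is also present in fetal germ cells. It read 6.79 and 6.84 in 129 and 8.10 and 8.47 in M19, a difference of 1.47 ± 0.21, or 2.77-fold (limma adjusted p = 0.0274). Of the 21 measured junction genes Cdh1 was called, the median was -0.004, and Cldn6, a tight junction gene of the early embryo, differed by 0.57 ± 0.12 without a call (limma adjusted p = 0.322). Among 15 markers of mesonephros and ducts, Cdh1 and Lhx1 were called and the median was 0.106. The summed signal of that list was 12.56 and 12.57 in 129 and 12.74 in both M19 arrays. This sum takes in the called Cdh1 probe set and the brighter, uncalled Lhx1 probe set, so it is not separate from these genes. Cdh16 and Krt8 differed by 0.30 and 0.25. The part of duct tissue in the Cdh1 and Lhx1 differences was not tested. The Cdh1 call was lost in 8 of 12 fits without 1 array (M19 arrays of E13.5 and E15.5 and all E17.5 arrays), with an adjusted p of up to 0.376.

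The remaining higher genes off chromosome 19 share no list. Car4, a membrane-bound carbonic anhydrase, read 6.09 and 6.55 in 129 and 8.59 and 8.78 in M19 with the probe set 1448949_at, a difference of 2.36 ± 0.27, or 5.14-fold (limma adjusted p = 0.00707). Its other probe set differed by 0.52. The adjusted p of the called probe set was up to 0.139 without 129 E17.5 replicate 1 or either M19 E17.5 array. Emb, a membrane glycoprotein that accompanies monocarboxylate transporters, read 8.44 and 8.2 in 129 and 9.63 and 9.83 in M19 with 1415856_at, 2.65-fold (limma adjusted p = 0.00162), and was called in each fit without 1 array. Its 2 other probe sets differed by 0.54 and -0.18.

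Mtm1, which encodes the phosphoinositide phosphatase myotubularin, was called with 2 of its 3 probe sets. The first, 1434278_at, read 8.89 and 8.88 in 129 and 10.19 and 10.17 in M19, a difference of 1.29 ± 0.16 (limma adjusted p = 0.0134). The second, 1454904_at, differed by 1.18 ± 0.17 (limma adjusted p = 0.0295) and the third by -0.13. Both calls were lost without any 1 of the E17.5 arrays, and that of the second also without either M19 E13.5 array, with adjusted p-values of up to 0.196 and 0.451. Of 18 genes of phosphoinositide metabolism, Mtm1 was called.

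Cyp11b1, the last enzyme of corticosteroid synthesis, was the called gene of the fetal Leydig list (15 measured) and of the adrenal and chromaffin list (14 measured). It read 7.36 and 7.59 in 129 and 8.32 and 8.37 in M19, a difference of 0.87 ± 0.13 (limma adjusted p = 0.0436). The call was lost in 10 of 12 fits that left out an array (all but those without a 129 E13.5 array), with an adjusted p of up to 0.602. The Leydig list had a median of 0.101, with 9 genes higher in both M19 arrays and 3 lower (14.0% and 9.38% of all genes), and Cyp17a1, Scarb1 and Fdx1 at 0.29, 0.28 and 0.28. The adrenal list had a median of 0.151, with Cyp21a1 at 0.31, Chga at 0.28, Th at 0.23 and Pnmt at -0.21. The part of adrenal tissue in the difference was not tested.

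The 18 called higher probe sets with a gene name reached their level by different routes across stages. In 8 of them the M19 E17.5 mean was the highest of the 6 group means: Cer1, Car4, Trh, Emb, Fgf5, Foxa2, Cyp26a1 and Pyroxd2. Over all probe sets this held for 21.7%. In the first 7 of these both M19 E17.5 arrays lay above all 10 other arrays. The 18 were chosen for high M19 values at E17.5, which favours that group as the highest, so these counts are a description and not support. In 9 of the 18, those of Lhx1, Tdgf1, Otx2, Cdh1, Mtm1 (both), L1td1, Dkk1 and Ric1, the highest mean was at E13.5 in either strain, which held for 18.8% of all probe sets with 129 and 15.3% with M19 as the highest. Cyp11b1 was highest in M19 at E15.5.

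Of the genes of the second kind, Tdgf1, Otx2, Lhx1 and Cdh1 were highest at E13.5 in both strains, with M19 above 129 at E17.5. From E15.5 to E17.5 the means of Tdgf1 and Lhx1 rose again, more in M19 than in 129, while those of Cdh1 fell in both. Tdgf1 had means of 7.65, 4.20 and 4.95 in 129 at E13.5, E15.5 and E17.5, and of 8.51, 5.95 and 7.88 in M19. For Otx2 the means were 9.05, 5.99 and 6.31 in 129 and 9.0, 7.88 and 8.21 in M19. Lhx1 ran 9.09, 4.74 and 4.79 in 129 and 9.24, 6.29 and 7.90 in M19. Cdh1 showed its gap last: 10.49, 9.56 and 6.82 in 129 against 10.66, 9.80 and 8.28 in M19. Ric1 and Dkk1 did not share this course. The called Ric1 probe set changed little, with means of 7.25, 7.05 and 6.98 in 129 and of 8.55, 8.30 and 8.37 in M19. The called Dkk1 probe set ran 6.92, 6.25 and 5.52 in 129, but 6.85, 6.15 and 6.65 in M19.

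**Figure D2:**
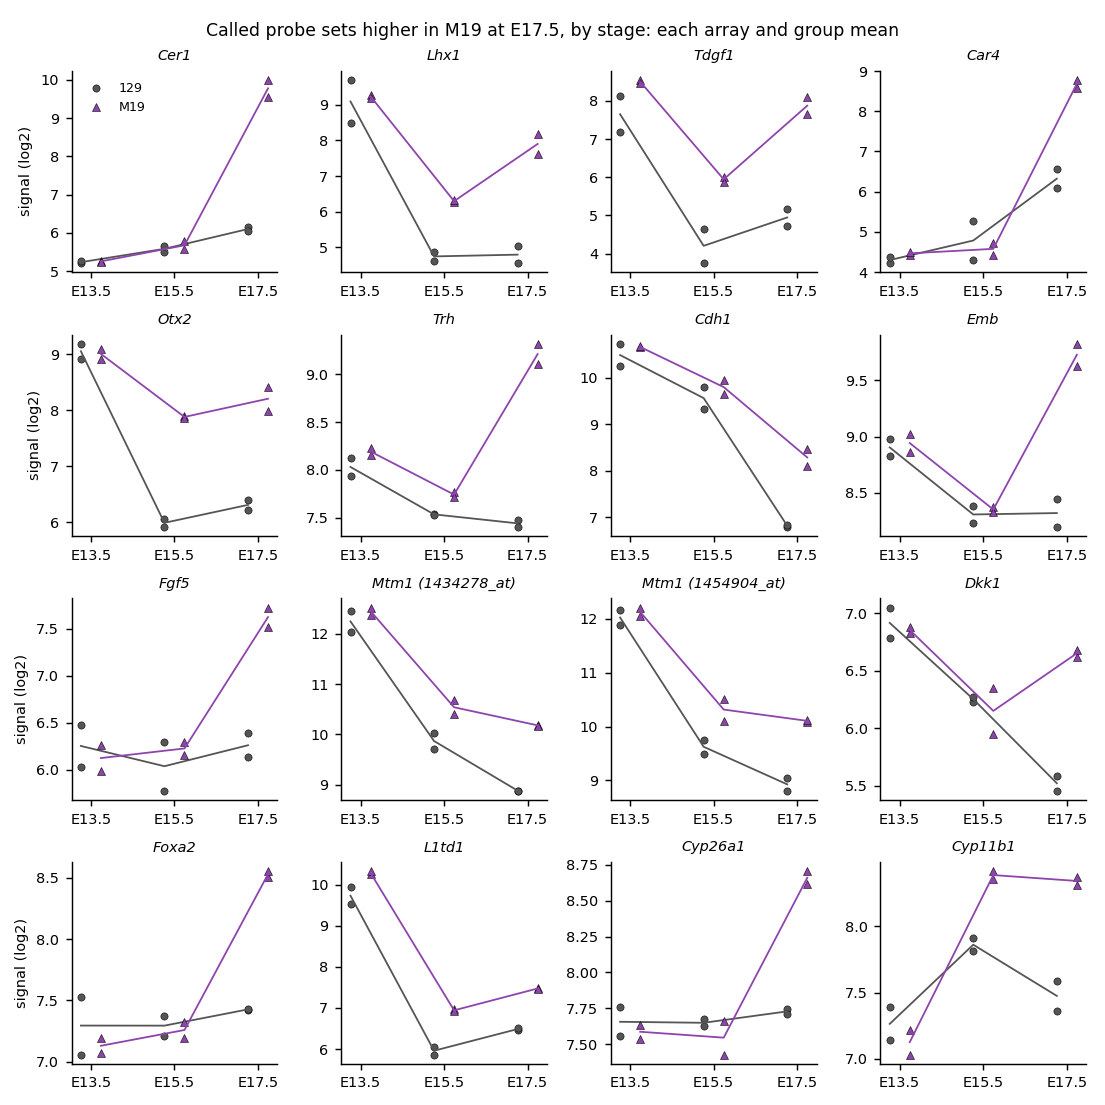
Signal (log2 units) on each array of 16 probe sets called higher in M19 at E17.5, against stage, with 129 arrays as grey circles, M19 arrays as purple triangles and lines through the group means. Cer1, Trh and Foxa2 part at E17.5, while Otx2, Tdgf1 and Lhx1 stand highest at E13.5 in both strains and lie higher in M19 at E17.5.

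Whether the strain difference itself changed between stages was tested as the difference of the 2 strain effects, in the same limma fit. Between E15.5 and E17.5, 60 of 45037 probe sets (0.133%) were called, 57 with a more positive effect at E17.5 (0.127%) and 3 with a more negative one (0.00666%). Of the 60, 5 were also called at E17.5. These were Cer1, with a change of effect of 3.58 ± 0.21 (limma adjusted p = 5.03e-05), Car4 with 2.57 (limma adjusted p = 0.0282), Trh with 1.56 (limma adjusted p = 0.00324), Emb with 1.36 (limma adjusted p = 0.0192) and Malat1 with -2.19 (limma adjusted p = 0.00771). Without 1 array, Cer1 and Trh remained called in each of the 12 fits. The adjusted p of Emb was up to 0.128 in 5 fits (without 129 replicate 2 of E15.5 or E17.5, either M19 E15.5 array or M19 E17.5 replicate 2), that of Car4 up to 0.187 in 8 fits (all but those without a 129 array of E13.5 or E15.5), and that of Malat1 up to 0.0716 in 2 (without 129 E17.5 replicate 2 or M19 E17.5 replicate 1).

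Most of the other probe sets owed their call to E15.5. Of the 60, 52 were called lower in M19 at E15.5, and 19 belong to the skin, skeletal muscle and cartilage lists. In 36 the 129 mean at E15.5 was at least 1 unit above the 129 means of both other stages. At E17.5 none of the 12 skin, 13 muscle and 11 cartilage genes was called by limma, 0 had an unadjusted p under 0.05, and the list medians were 0.056, 0.028 and 0.074. Dppa5a, a marker of pluripotent and early germ cells, went the other way: its strain effect was 1.61 at E15.5 and 0.27 at E17.5, a change of -1.34 (limma adjusted p = 0.00668). Apela, of the anterior endoderm and organizer list, was called with a change of 1.18 (limma adjusted p = 0.0311). Its strain effect was -0.54 at E15.5 and 0.65 at E17.5, and neither was called.

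Between E13.5 and E17.5, 4 probe sets (0.00888%) were called, all with a more positive effect at E17.5. These were Cer1 with 3.65 (limma adjusted p = 0.000164), Otx2 with 1.94 (limma adjusted p = 0.0365), Trh with 1.61 (limma adjusted p = 0.0221) and Nxf2, an RNA export gene of germ cells, whose effect was 0.31 at E17.5 and -1.36 at E13.5. Cer1 remained called in each of 12 fits without 1 array. Trh reached an adjusted p of 0.227 in 8 such fits (all but those without a 129 array of E13.5 or E15.5) and Otx2 of 0.362 in 10 (all but those without 129 E13.5 replicate 1 or M19 E17.5 replicate 1). Both stage comparisons use the same E17.5 arrays and are not independent. For the other genes called at E17.5, Lhx1, Tdgf1 and Foxa2 among them, a change of the strain effect between stages was not called.

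**Figure D3:**
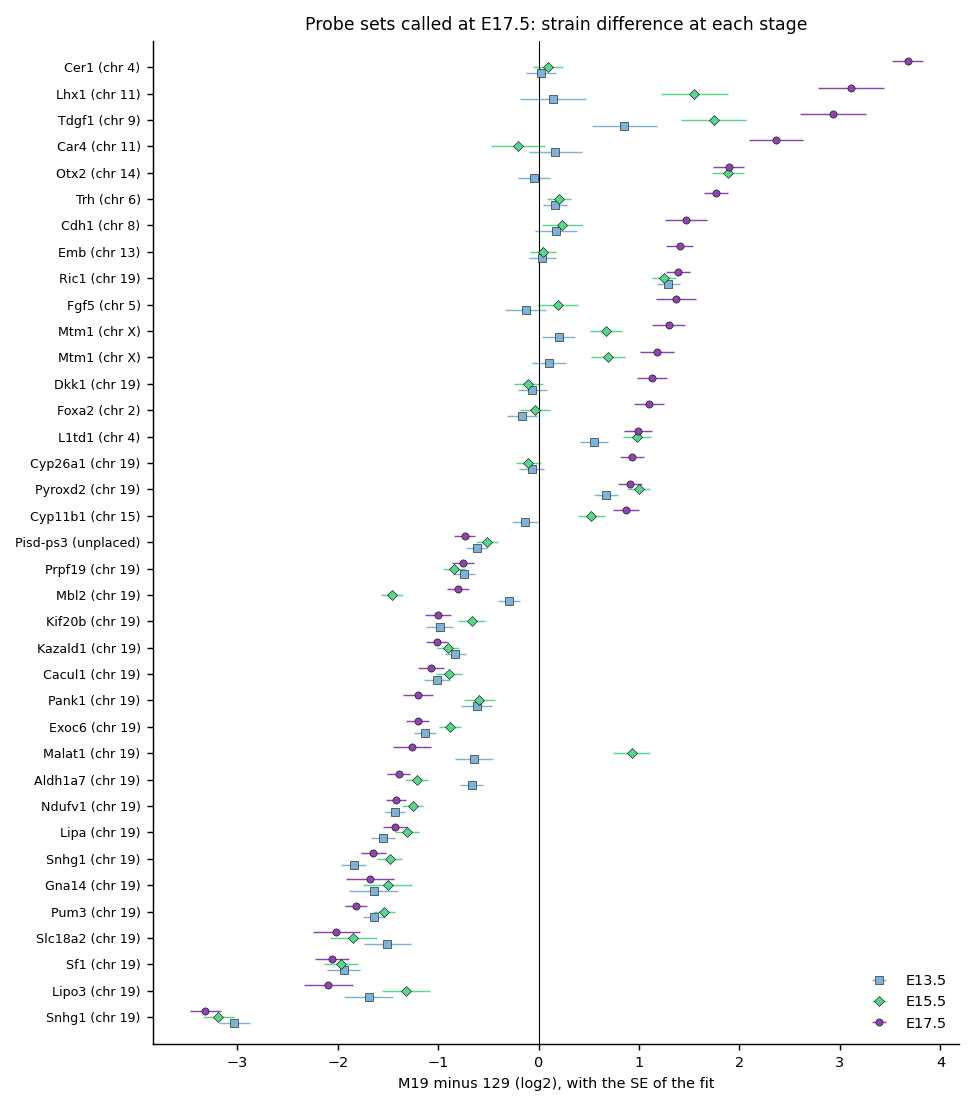
Strain difference (M19 minus 129, log2 units, ± SE of the limma fit) at E13.5, E15.5 and E17.5 for the 37 called probe sets with a gene name. Most lower probe sets have similar differences at the 3 stages. Cer1, Car4, Trh, Emb, Fgf5, Foxa2, Dkk1 and Cyp26a1 stand apart from 0 at E17.5 and lie between -0.21 and 0.21 at both earlier stages. Among these, the change of effect from E15.5 was called for Cer1, Car4, Trh and Emb.

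Chromosome 19, the substituted chromosome, held 21 of the 35 called genes (60%) and 3.38% of the genes with a known position. This is 21 of its 609 genes (3.45%), against 13 of 17423 genes elsewhere (0.0746%). On chromosome 19, 17 genes were lower in M19 and 4 higher. Off it, 13 genes were higher, and the remaining gene, the pseudogene Pisd-ps3, was lower and has no position in the annotation used. It fell by 0.73 ± 0.11 with 1453145_at, and its other probe sets differed by -0.17, -0.61, -0.21 and 0.04. Its call was lost in 10 of 12 fits without 1 array (all but those without a 129 E13.5 array), with an adjusted p of up to 0.391. Without 1 array the number of called genes on chromosome 19 at E17.5 ran from 8 to 23.

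A shift over the whole chromosome was not seen. The median difference of its 609 genes was 0.013, against 0.007 for genes elsewhere. Its genes spread more widely on both sides: 20.2% lay higher in both M19 arrays and 21.2% lower, against 13.8% and 8.95% of other genes. Below -0.5 lay 30 of 609 genes on chromosome 19 and 34 of 17423 elsewhere, and above 0.5 lay 15 and 53.

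Snhg1, a non-coding host of small nucleolar RNAs, was the lowest. Its probe set 1454703_x_at read 9.61 and 9.37 in 129 and 6.13 and 6.21 in M19, a difference of -3.32 ± 0.16 (limma adjusted p = 7.99e-06). A second probe set, 1437658_a_at, fell by 1.65 ± 0.12 (limma adjusted p = 0.000389), and 3 others differed by -0.36 to -0.46 without a call. Both called probe sets stayed called in each fit without 1 array.

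The series text names 3 genes of chromosome 19 as reduced in M19, 2 of them under older symbols, so that the direction of these 3 is not independent evidence here. Sf1, a splicing factor that reads the branch point, read 13.45 and 13.43 in 129 and 11.12 and 11.64 in M19 with 1459765_s_at, a difference of -2.06 ± 0.17 (limma adjusted p = 0.000604). Its other 4 probe sets differed by -0.83, 0.16, 0.03 and -0.08. Pum3, a nucleolar RNA-binding protein, read 10.41 and 10.40 against 8.49 and 8.68 with 1434173_s_at, a difference of -1.82 ± 0.11 (limma adjusted p = 8.13e-05). Its other probe sets differed by -0.15 and -0.48. Cox15, an enzyme of heme A synthesis, was not called: its 4 probe sets differed by -1.46 (limma adjusted p = 0.134), -0.49, -0.37 and -0.06.

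Slc18a2, the vesicular monoamine transporter, read 8.03 and 7.66 in 129 and 5.56 and 6.11 in M19, a difference of -2.01 ± 0.23 (limma adjusted p = 0.00852). Lipo3, a relative of acid lipases, read 9.53 and 9.19 against 7.03 and 7.50, with -2.09 ± 0.24 (limma adjusted p = 0.00805). Ndufv1, a subunit of respiratory complex I, read 11.34 and 11.33 against 9.95 and 9.89, with -1.42 ± 0.10 (limma adjusted p = 0.000317). Its other probe sets differed by -0.09 and -0.42. Without either 129 E17.5 array or M19 E17.5 replicate 1, Slc18a2 and Lipo3 were no longer called, with adjusted p-values of up to 0.168 and 0.161.

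Aldh1a7, an aldehyde dehydrogenase, read 10.23 and 10.14 in 129 and 8.79 on both M19 arrays, a difference of -1.39 ± 0.11 (limma adjusted p = 0.000604). Lipa, the lysosomal acid lipase, fell by 1.43 ± 0.12 with 1423140_at, while its other probe sets differed by -0.74 and -0.24. Pank1, which starts coenzyme A synthesis, fell by 1.20 ± 0.15 with 1431028_a_at, while its other probe sets differed by -0.37, 0.04 and -0.40. Kazald1, a secreted protein of the growth factor binding family, was bright in both strains, with 12.24 and 12.29 in 129 and 11.22 and 11.27 in M19. Its difference was -1.01 ± 0.11 (limma adjusted p = 0.0047). Pank1 was not called without either 129 E17.5 array or M19 E17.5 replicate 1, and Kazald1 without any 1 of the E17.5 arrays, with adjusted p-values of up to 0.206 and 0.0968.

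Exoc6, an exocyst subunit, and Cacul1, a cullin-domain protein of the cell cycle, fell by 1.21 and 1.07, each with 1 probe set. The other Cacul1 probe sets were not called and differed by 0.04 (the brightest), -0.26, -0.89, -0.01 and 0.19. Kif20b, a kinesin of cell division, was the lower gene of the proliferation list (24 measured), with -1.0 ± 0.13, while its other probe sets differed by -0.29, 0.36 and 0.57. Gna14, a G protein subunit, fell by 1.68 ± 0.24 with 1 probe set, and its others differed by -0.11 and 0.20. Mbl2, a lectin of innate immunity, fell by 0.80 ± 0.11, and Prpf19, a splicing ubiquitin ligase, by 0.75 ± 0.11 with 1449635_at. The other Prpf19 probe sets were not called and differed by 0.03 (the brightest), -0.53, 0.02 and -0.12. Exoc6 remained called without any 1 array. The others lost the call in 3 (Cacul1), 6 (Kif20b), 7 (Gna14), 8 (Mbl2) and 10 (Prpf19) of the 12 fits without 1 array, always including the fits without a 129 E17.5 array or M19 E17.5 replicate 1. Adjusted p-values reached 0.197, 0.258, 0.400, 0.327 and 0.475 in that order. The fits beyond these were those without M19 E17.5 replicate 2 or an M19 E13.5 array for Kif20b, an M19 array of E13.5 or E15.5 for Gna14, all of these for Mbl2, and all of these and the 129 E15.5 arrays for Prpf19.

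Malat1, a nuclear non-coding RNA, was the exception in sign among the lower genes. With 1436202_at it read 10.24 and 10.43 in 129 and 8.93 and 9.22 in M19 at E17.5, a difference of -1.26 ± 0.19 (limma adjusted p = 0.0395). At E15.5 the difference was 0.93, in the opposite direction and not called (limma adjusted p = 0.0732), and at E13.5 it was -0.64. The gene's 6 other probe sets differed by -1.05 to 0.43 at E17.5, and at E13.5 all lay above 0, by 0.03 to 0.94. Of these, 1429060_at was higher in M19 at each stage and was called at E15.5, with 1.03 (limma adjusted p = 0.0485). The rest were not called at E15.5. The call was lost after median centring and without any 1 of 8 arrays (M19 E13.5, 129 E15.5 and all of E17.5), with an adjusted p of up to 0.608. Other lower genes kept their sign at the earlier stages but not always their size. At E15.5 and E13.5 the called probe sets differed by -1.46 and -0.29 for Mbl2, -1.215 and -0.67 for Aldh1a7, and -0.59 and -0.615 for Pank1. None of these was called at E13.5.

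A pair of chromosome 19 genes was higher in M19 beside Dkk1 and Cyp26a1. Ric1, which activates a Golgi trafficking GTPase, read 7.03 and 6.93 in 129 and 8.37 on both M19 arrays with 1431023_at, a difference of 1.39 ± 0.12 (limma adjusted p = 0.000604). Its brighter probe set differed by 0.69 and was not called. Pyroxd2, a mitochondrial oxidoreductase-like protein, read 8.28 and 8.23 against 9.11 and 9.21, a difference of 0.91 ± 0.12 (limma adjusted p = 0.0167), while its other probe sets differed by 0.03 and 0.43. Leaving out any 1 of the E17.5 arrays ended its call, with an adjusted p of up to 0.24. Ric1 and Pyroxd2 were higher in M19 at E15.5 too, by 1.25 and 1.00.

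**Figure D4:**
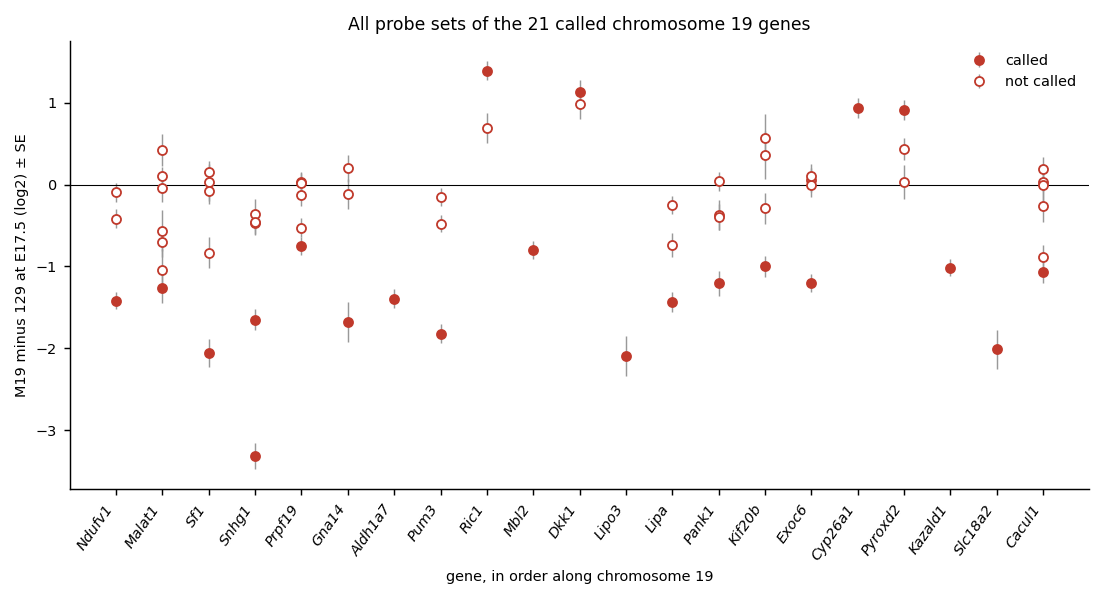
Strain difference at E17.5 (M19 minus 129, log2 units) of every probe set of the 21 called genes on chromosome 19, with genes in their order along the chromosome and filled points for called probe sets. For genes such as Exoc6, Sf1 and Malat1, called and uncalled probe sets of the same gene lie far apart.

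For several genes the call came from 1 probe set while others of the same gene lay near 0. The 17 lower genes of chromosome 19 have 39 further probe sets, of which 25 were also below 0, 17 lay lower in both M19 arrays and 7 lay higher in both. The median over the 39 was -0.113. For Exoc6, the other probe sets differed by 0.06, -0.01 and 0.11. The 13 higher genes off chromosome 19 have 7 further probe sets, 5 of them above 0 and higher in both M19 arrays, with a median of 0.218. M19 carries MOLF sequence on chromosome 19 and the array was designed on other sequence, and whether sequence under the probes enters these values was not tested.

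The 2 groups also differed in how far back they reached, although the choice of members at E17.5 favours larger values at that stage. The 18 lower probe sets of chromosome 19 had medians of -1.41 at E17.5, -1.28 at E15.5 and -1.28 at E13.5. They kept their sign in 17 cases at E15.5 and 18 at E13.5 and were called the same way in 15 and 11, against 0.453% and 0.0422% of all probe sets called lower at those stages. The 14 higher probe sets off chromosome 19 had medians of 1.44, 0.381 and 0.123 at E17.5, E15.5 and E13.5. They were called higher in 3 cases at E15.5 and 0 at E13.5 by limma, against 0.12% and 0.00888% of all probe sets. The tests of the change of effect are those given above.

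Across the 609 genes of chromosome 19, the strain differences at E17.5 and E15.5 had a Pearson r of 0.672 and a Spearman rho of 0.459, and those at E17.5 and E13.5 an r of 0.588 and a rho of 0.332. Across the 17423 genes elsewhere the values were 0.008 and -0.099 with E15.5, and -0.186 and -0.252 with E13.5. Genes are not independent replicates, and these values describe the arrays. The stages compared share no arrays.

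Defining markers of the labelled tissue were bright at E17.5, where array medians lay between 8.18 and 8.22. Cyp17a1, an enzyme of androgen synthesis in fetal Leydig cells, read 13.58 and 13.7 in 129 and 13.89 and 13.98 in M19. Of 16 germ cell identity genes 0 were called by limma (2 at an unadjusted p under 0.05), and the median was 0.024. Ddx4, the germ cell helicase, read 11.91 and 11.55 in 129 and 11.5 and 11.94 in M19, which overlap. Dazl and Elavl2 differed by -0.29 and -0.55 and Dnd1, the gene behind the Ter tumour mutation, by 0.37.

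Of 21 Sertoli genes 0 were called, with 0 at an unadjusted p under 0.05 in limma and a median of -0.011. Amh, the hormone of fetal Sertoli cells, read 11.51 and 12.21 in 129 and 12.62 and 12.18 in M19. Sox9 read 10.2 and 10.16 against 10.61 and 9.97. Both overlapped between strains. The lists of the male germline piRNA pathway (19 genes), meiosis (20) and genes linked to testicular germ cell tumours (17) also had 0 calls by limma, with medians of 0.023, 0.007 and -0.014 and 1, 0 and 2 genes at an unadjusted p under 0.05.

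Cholesterol synthesis genes showed small differences of 1 sign without a call. All 19 measured genes lay above 0, between 0.0877 and 0.565, and 14 were higher in both M19 arrays, against 14.0% of all genes. Limma called 0 of them and gave 8 an unadjusted p under 0.05, against 0.868% of all genes in that direction. Dhcr7, the enzyme of the last step, read 11.67 and 11.53 in 129 and 12.19 and 12.02 in M19, with 0.51 ± 0.11 (limma adjusted p = 0.487). Tm7sf2, a sterol reductase encoded on chromosome 19, read 9.74 and 9.83 against 10.5 and 10.2. The list's median was 0.274, with 0.212 to 0.296 when 1 array was left out. It too was drawn up with earlier results of these data known, so its counts are not independent evidence. Without M19 E17.5 replicate 2, 18 of the 19 lay above 0.

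**Figure D5:**
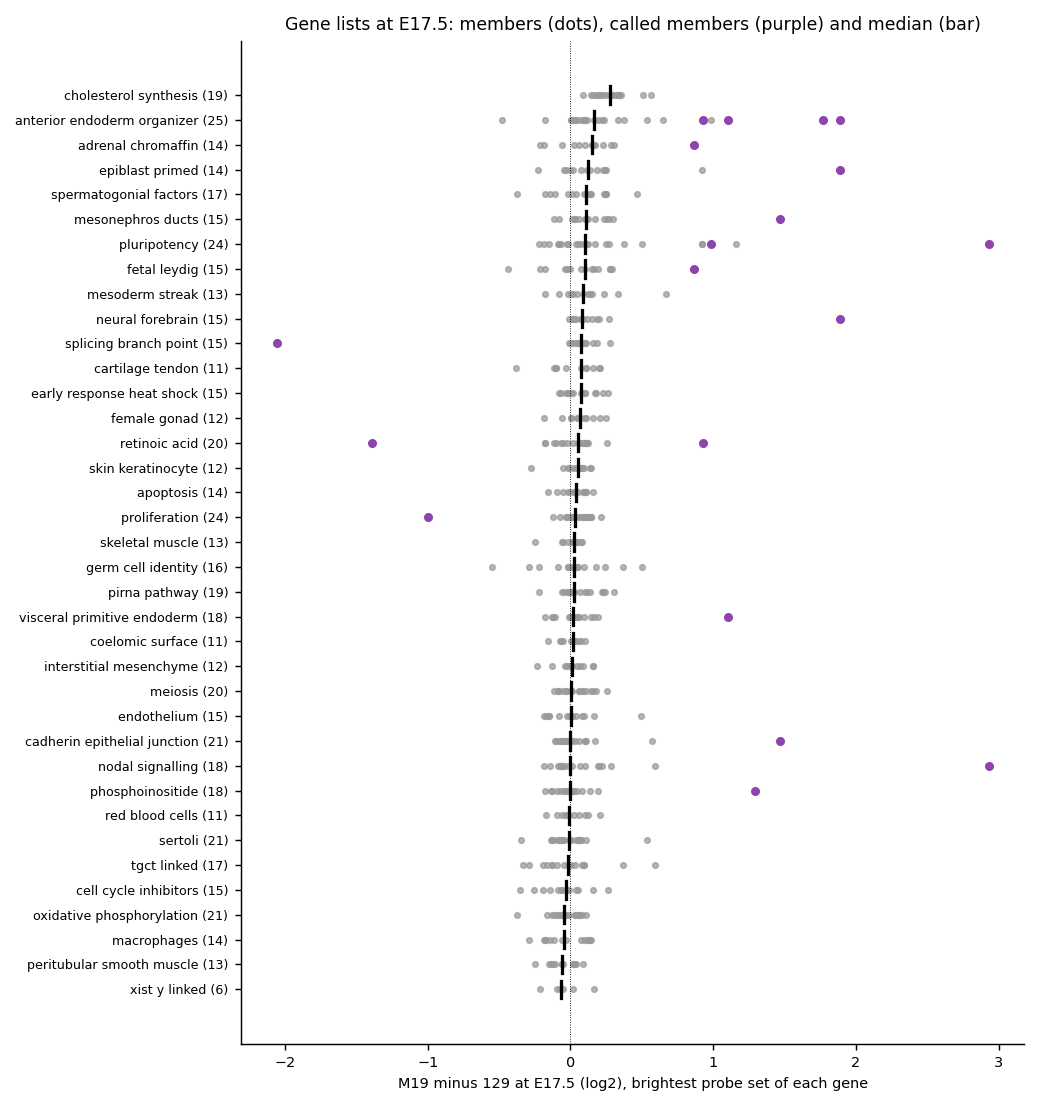
Strain difference at E17.5 (M19 minus 129, log2 units) of the brightest probe set of each member of 37 gene lists, with called members in purple and a bar at each list's median. The cholesterol synthesis list has the median 0.274 and the anterior endoderm and organizer list 0.167, while the Sertoli and germ cell identity lists lie at -0.011 and 0.024.

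The retinoic acid list of 20 genes held a called gene in each direction, Cyp26a1 and Aldh1a7, with a median of 0.056. The splicing list held Sf1 and the oxidative phosphorylation list Ndufv1, both lower and both on chromosome 19. Endothelial genes (15) had 0 calls by limma and 1 gene at an unadjusted p under 0.05, and macrophage, peritubular and interstitial lists had medians of -0.046, -0.056 and 0.014. The red blood cell list had a median of -0.007.

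There remain 7 called probe sets that the platform annotation pairs with no gene. Of these, 2 were higher in M19, 1452426_x_at by 1.55 and 1424797_a_at by 1.36, and 5 were lower, by 1.46 for 1427593_at at the most. All 7 had the same sign at both earlier stages, and 4 were called the same way at each.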

How the data were processed

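The authors deposited 1 value for each of 45101 probe sets on each of 12 Affymetrix mouse arrays, taken here as log2 signal because the values and their medians of 8.1 to 8.27 fit that scale. Their summary method, background correction, normalization and log base are not given in the sources used here, and an unknown base would scale every difference. Arrays have no read depth, and 2 arrays per group limit the precision. After 64 control probe sets were left out, 45037 were tested. GEO's platform annotation, updated through RefSeq (GRCm38.p6), pairs 34945 with 1 gene, 932 with several and 9160 with none. Each gene is represented by its brightest probe set (by mean signal on all 12 arrays), which list medians use.

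limma 3.58.1 in R 4.3.3 fitted 6 group means to 12 arrays without a block (lmFit and eBayes, 6 residual and 4.82 prior degrees of freedom). Each strain difference, and the differences of the strain effect between stages, were tested over all probe sets, with Benjamini-Hochberg adjustment. The procedure was tested on simulated data with 200 changed probe sets. Of changes of 0.5, 1 and 2 units, 10.4%, 53.7% and 98.5% were called, and 5 of 113 calls were false. A difference of 1 unit or less without a call is therefore not evidence of no difference. Python 3.11.15, pandas 2.3.3 and matplotlib 3.10.9 made the tables and plots.

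The comparison and its 38 gene lists were chosen with earlier results of these data known. All called probe sets with 1 gene are named, with uncalled list members of large, non-overlapping difference and the genes the series text names. Ddx4, Amh and Sox9 are added as defining markers, and Dppa5a, Nxf2 and some members without a call were chosen after their values were seen. Alternatives were other normalizations, filters, variance models, a block, fewer arrays, a minimum difference and 1 value per gene.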

Additional observations from a re-analysis of the deposited data

Results flagged for a closer look

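For 6 genes called at E17.5, limma's test of the difference between 2 strain effects was passed. The strain effect of Cer1 was larger at E17.5 than at E15.5 by 3.58 (limma adjusted p = 5.03e-05) and than at E13.5 by 3.65 (limma adjusted p = 0.000164). For Trh the change was 1.56 from E15.5 (limma adjusted p = 0.00324) and 1.61 from E13.5 (limma adjusted p = 0.0221). Otx2 changed by 1.94 from E13.5 (limma adjusted p = 0.0365), a call lost after quantile normalization, after median centring and with a replicate block. From E15.5, Car4 changed by 2.57 (limma adjusted p = 0.0282) and Emb by 1.36 (limma adjusted p = 0.0192). Malat1 changed by -2.19 from E15.5 (limma adjusted p = 0.00771), where its strain effect had the opposite sign. The M19 arrays lay above the 129 arrays at E17.5 for the first 5 genes and below them for Malat1, on 2 of 2 arrays in each case. These genes were chosen by a call on the same arrays, which favours such separation.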

How the results depend on the processing

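The strain difference at E17.5 gave 44 calls, 22 when only probe sets above the median mean were tested (5 higher and 17 lower, 21 of them among the 44), 25 with 1 mean value per gene, and 14 to 52 when 1 array was left out. Quantile normalization, median centring, removal of dim probe sets below the 25th percentile, removal of exact zeros, other variance models, a minimum difference of 1 unit and a fit on the E17.5 arrays alone gave 34 to 45. The difference of the strain effect between E17.5 and E15.5 gave 60 calls, 18 above the median mean, 39 above the 25th percentile and 29 to 95 when 1 array was left out. The difference of the strain effect between E17.5 and E13.5 gave 4 calls, 2 after quantile normalization, 2 after median centring, 1 above the median mean, 7 with 1 value per gene and 1 to 6 when 1 array was left out. The number of called genes on chromosome 19 at E17.5 was 21, 14 to 22 under the alternatives that use probe sets and all arrays or those of E17.5, and 8 to 23 when 1 array was left out. The 2 filters test fewer probe sets, and the cause of the other changes was not tested. With a replicate block the strain difference at E17.5 again gave 44 calls, 42 of them the same probe sets; Cyp11b1 and Pisd-ps3 lost the call. Deviations of same-numbered arrays correlated above 0.1 in 6 of 15 pairs of groups, while other pairs were negative. The value was -0.215 between 129 E17.5 and M19 E17.5. The sign differed between pairs, and the arrays were not treated as paired by number. A block by replicate number cannot take up a factor whose sign differs between groups, and such a factor was not tested. The deviations were not without structure: 129 E13.5, 129 E15.5 and M19 E17.5 correlated at 0.505 to 0.539 with each other, and M19 E15.5 at -0.373 and -0.347 with the first 2 of these. All 37 named called probe sets kept their sign in the 12 fits without 1 array. Their E17.5 arrays did not overlap between strains, so leaving out 1 array could not reverse the sign, and the kept sign is not support. In every one of these fits 13 of them were called, Cer1, Otx2, Trh, Emb, Ric1, Snhg1 and Sf1 among them. Median centring also ended the calls of Fgf5, L1td1, Malat1, Gna14, Prpf19 and Pisd-ps3, and quantile normalization those of Fgf5 and Gna14. No tested result changed sign with a call. The called probe sets of the higher genes Cer1, Lhx1, Tdgf1, Car4, Fgf5 and Dkk1 lie below the 25th percentile of means and were tested under neither filter. The same holds for the lower genes Slc18a2 and Mbl2. The lowest Snhg1 probe set, 1454703_x_at, was not tested under the filter at the median. Dim probe sets such as those of Lhx1 and Tdgf1 read near 5 in 129, and without detection calls it is not known here whether that lies above background.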
